A study of Mus musculus with 6 samples.

Results

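The transcripts described here are mouse genes that still carry a RIKEN clone name beginning with 492 or 493, measured in adult testis. A gene was taken when a probe set annotated to it alone had a mean intensity of at least 100 over the 6 arrays, and the probe set of highest mean stood for the gene. Members were thus chosen by their mean intensity, which selected 145 of the 417 such genes on the array, among 18193 genes with a probe set of 1 symbol, and 272 fell under the minimum. The levels of the members are therefore a description. The minimum does not use the strain, but 25 of the 145 had at least 1 strain mean under 100 and owe their place to the strains where they were high. The other 120 had all 3 strain means at 100 or more, and counts are given for them as well. Just inside the minimum lay 4930442L01Rik, 4930568D16Rik and 4930507D10Rik, with means of 101, 101 and 102, and just outside it lay 4930518C04Rik, 4933416I08Rik and 4930432J09Rik, with means of 96.1, 94.3 and 94.3.

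Testis RNA came from mice aged 8 weeks, 2 each of the inbred strains MRL/MpJ+/+, AKR/N and C57BL/6, with 1 array per mouse. The labels name no treatment, transgene or induced mutation. MRL/MpJ+/+ is the MRL background with the wild-type allele at the lymphoproliferation locus. Values are linear probe set intensities, scaled by the authors to a common trimmed mean of 125.001, and array medians lay between 28.0 and 30.7 units. Differences are on the scale of log2(intensity + 16), with standard errors (SE) and limma p-values adjusted by Benjamini-Hochberg over the 29692 probe sets tested, and a member was called at an adjusted p under 0.05. Over the members, the log2 values of arrays of the same strain correlated at 0.989 to 0.992 and those of different strains at 0.871 to 0.928, where genes are not independent replicates. The small number of arrays limits precision. The p-values set each difference against the spread between these samples, estimated in part from the other probe sets. In whole tissue, fewer cells of a type and less RNA per cell cannot be told apart.

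RIKEN clone names come from the full-length mouse cDNA collection, in which clones were numbered by library, and clones of these series were drawn from testis. A gene keeps such a name until it is given one by function or homology. Many have since proved to be long noncoding RNAs (lncRNAs), and others encode proteins of meiotic cells, spermatids and the sperm flagellum. Testis transcribes an unusually large share of the genome, chiefly in spermatocytes and round spermatids. Regulators known for this programme include the MYB family factor A-MYB, the RFX factors and CREM, which binds the cyclic AMP response element (CRE).

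Of the 145 members, 140 were matched to RefSeq by their gene identifier, and each of these still had the RIKEN symbol. RefSeq classed 70 as lncRNA, 63 as protein coding, 5 as transcribed pseudogenes and 2 as other RNA. On the log2(intensity + 16) scale 5 members, all lncRNAs, differed between strains by 4-fold or more. The other RNA 4930573C08Rik lay just under this at 3.99-fold, and at 4.72-fold on the intensities themselves. The promoter windows of the 5 from RefSeq (GRCm38.p6, an assembly of C57BL/6J) are printed here because these transcripts differed most on that scale. Each runs from 250 bases before the gene's start to 50 bases after it, on the gene's own strand. The windows are chr15:46496130-46496429 (minus strand) for 4930523O13Rik, chr9:98003170-98003469 (plus) for 4921534H16Rik, chr9:75409934-75410233 (plus) for 4933433G15Rik, chr3:135840220-135840519 (minus) for 4933401H06Rik and chr5:114774934-114775233 (minus) for 4930515G01Rik. Capitals mark the MYB core GGCAGTT, read on the opposite strand, in 4933401H06Rik, and the CRE core TGACGT, also on the opposite strand, in 4933433G15Rik. No AKR/N or MRL/MpJ+/+ genome sequence was used here.
4930523O13Rik: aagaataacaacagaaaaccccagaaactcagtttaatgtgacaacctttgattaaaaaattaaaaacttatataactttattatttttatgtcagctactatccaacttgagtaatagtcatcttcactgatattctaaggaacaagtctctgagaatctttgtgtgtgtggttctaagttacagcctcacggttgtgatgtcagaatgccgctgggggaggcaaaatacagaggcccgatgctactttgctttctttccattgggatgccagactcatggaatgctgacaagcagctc
4921534H16Rik: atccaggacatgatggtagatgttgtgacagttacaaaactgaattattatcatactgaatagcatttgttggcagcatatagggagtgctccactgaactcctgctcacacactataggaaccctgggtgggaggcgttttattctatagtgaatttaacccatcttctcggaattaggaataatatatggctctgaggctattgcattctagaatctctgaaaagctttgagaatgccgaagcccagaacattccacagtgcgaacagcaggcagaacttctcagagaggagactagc
4933433G15Rik: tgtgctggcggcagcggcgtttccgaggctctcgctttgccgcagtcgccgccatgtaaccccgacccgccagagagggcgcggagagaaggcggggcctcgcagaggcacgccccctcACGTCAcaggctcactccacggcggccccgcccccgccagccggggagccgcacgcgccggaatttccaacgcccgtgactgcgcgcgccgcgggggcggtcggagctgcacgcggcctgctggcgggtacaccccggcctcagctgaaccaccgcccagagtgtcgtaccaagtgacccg
4933401H06Rik: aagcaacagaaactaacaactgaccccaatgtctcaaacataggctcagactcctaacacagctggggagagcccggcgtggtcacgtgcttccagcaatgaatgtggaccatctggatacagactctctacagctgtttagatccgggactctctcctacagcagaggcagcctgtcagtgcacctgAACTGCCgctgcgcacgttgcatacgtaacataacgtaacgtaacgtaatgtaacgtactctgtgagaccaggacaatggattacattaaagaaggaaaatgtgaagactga
4930515G01Rik: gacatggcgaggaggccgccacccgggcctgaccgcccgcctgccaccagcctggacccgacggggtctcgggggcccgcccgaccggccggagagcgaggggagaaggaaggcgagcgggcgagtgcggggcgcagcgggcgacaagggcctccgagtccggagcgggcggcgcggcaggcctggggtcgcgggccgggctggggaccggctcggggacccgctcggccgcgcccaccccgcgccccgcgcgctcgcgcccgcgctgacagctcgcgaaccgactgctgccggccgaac
The 5 windows differ widely in base composition. G and C made up 38.7% of that of 4930523O13Rik, 43% in 4921534H16Rik and 48.7% in 4933401H06Rik, but 73.7% in 4933433G15Rik and 81% in 4930515G01Rik. The median over the 111 members with a promoter window was 50.7%, beside 52.7% over all 27025 genes with one.

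Signal of the members spanned from 101 to 4062 units, with a median of 265, and 14 had a mean of at least 1000. Probe sets bind with different efficiency, so signals of different genes are not set against each other as levels, and the order by signal serves only to name members. The highest signal was that of 4930453N24Rik, a protein-coding gene, with 4123 and 4208 units in C57BL/6, 4295 and 4245 in AKR/N, and 3666 and 3835 in MRL/MpJ+/+. Its MRL/MpJ+/+ arrays were the lowest and did not overlap the others, but no comparison was called. Next came 4933411K16Rik, also protein coding, with means of 4213 ± 272 (SD, n = 2), 4206 ± 134 and 3490.1 ± 142 in the same order of strains. It was lower in MRL/MpJ+/+ than in C57BL/6 by 0.27 (log2, SE 0.065, adjusted p = 0.025 by limma) and than in AKR/N by the same size (adjusted p = 0.0338). Leaving out C57BL/6 replicate 1 or either MRL/MpJ+/+ array ended the first call, with a highest adjusted p of 0.146, and leaving out any of the 4 AKR/N and MRL/MpJ+/+ arrays ended the second (up to 0.241).

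The other members of highest mean were 4930571K23Rik (2764), 4930544G11Rik (2604) and 4930503B20Rik (2131), which encode proteins, and the lncRNAs 4933406F09Rik (2134), 4930449C09Rik (2087) and 4930403D09Rik (1814). Of these, 4930544G11Rik and 4930449C09Rik were not called in any comparison, with differences between -0.06 and 0.07 (log2). The lncRNA 4930403D09Rik gave 1707 and 1658 units in C57BL/6, 2119 and 2159.7 in AKR/N, and 1599 and 1642 in MRL/MpJ+/+. AKR/N was above all 4 other arrays. The difference was 0.34 (SE 0.0612, adjusted p = 0.00525 by limma) against C57BL/6, a call that ended without AKR/N replicate 2 (adjusted p = 0.0599). MRL/MpJ+/+ was lower than AKR/N by 0.40 (log2, adjusted p = 0.00356), and this held with each array left out. MRL/MpJ+/+ was also lower than AKR/N in 4930571K23Rik (-0.29, adjusted p = 0.037) and 4930503B20Rik (-0.32, adjusted p = 0.0229). Those calls were lost without AKR/N replicate 1, AKR/N replicate 2 or MRL/MpJ+/+ replicate 2, and the first also without MRL/MpJ+/+ replicate 1, with adjusted p up to 0.211 and 0.173. The excess of MRL/MpJ+/+ over C57BL/6 in 4933406F09Rik (0.29, adjusted p = 0.044) was lost on leaving out any array except C57BL/6 replicate 1, with an adjusted p of up to 0.238.

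**Figure D1:**
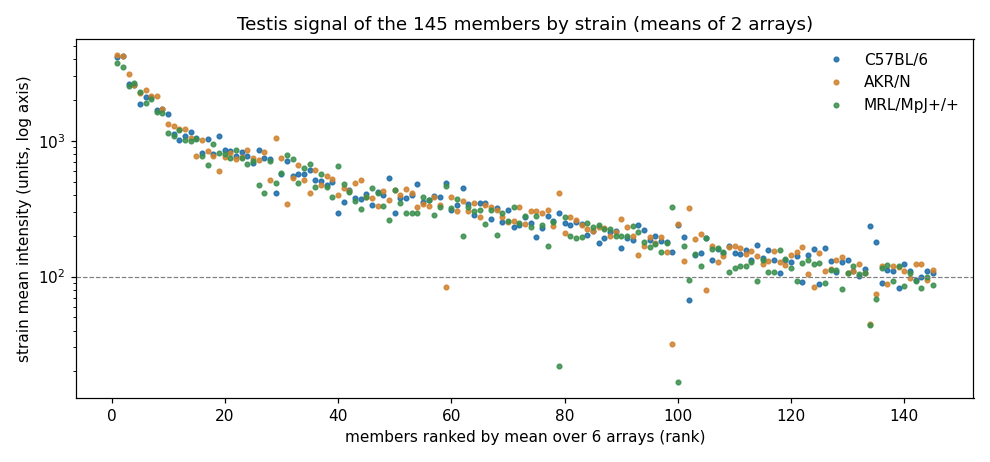
Strain mean intensity (units, log axis, mean of 2 arrays) of the 145 members, ranked on the horizontal axis by their mean over 6 arrays, with 1 point per strain and a dashed line at 100. Most members have their 3 points close together, and the few that fall far below the line in 1 or 2 strains include 4930523O13Rik and 4921534H16Rik in MRL/MpJ+/+.

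Several protein-coding members have a known role under another name. The synaptonemal complex protein gene 4930447C04Rik (Six6os1), needed for chromosome pairing in meiosis, had means of 144 ± 8.09 (SD, n = 2), 104 ± 25.8 and 132 ± 3.44 units, in the order C57BL/6, AKR/N, MRL/MpJ+/+. The meiotic recombination gene 4930432K21Rik (Brme1) had 307 ± 48.5, 253 ± 12.9 and 255 ± 21.5 in that order. The centriolar satellite gene 4933427D14Rik had 355 ± 63.9, 343 ± 4.41 and 387 ± 7.55, and 4932438A13Rik, which encodes a very large lipid transfer protein, had 570.3 ± 33.6, 511 ± 8.69 and 627 ± 46.3. None of these 4 was called in any comparison by the probe set that stood for it. They were chosen for their known function after their values were seen. A dim further probe set of 4932438A13Rik, with means of 29.9, 4.60 and 1.76 in the same order, was called lower than in C57BL/6. It differed by -1.37 in MRL/MpJ+/+ (adjusted p = 0.0208 by limma) and by -1.16 in AKR/N (adjusted p = 0.0434). The remaining further probe sets of that gene were not called.

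Differences between strains were called for 68 members (46.9%) in at least 1 of the 3 comparisons, beside 30.3% of the 7738 tested genes with a mean of at least 100. At 2-fold or more they numbered 12 (8.28%), beside 3.28%. The 12 were 10 lncRNAs, the pseudogene 4933400A11Rik and the other RNA 4930573C08Rik, and none was protein coding. Of the lncRNA members 14.3% were called at 2-fold or more and of the protein-coding members 0%. Among the other genes of at least 100 units the shares were 12.3% of 162 lncRNAs and 2.93% of 7376 protein-coding genes. The 0% rests on the pseudocount of 16, since the protein-coding 4933424G06Rik was 2.04-fold lower in MRL/MpJ+/+ than in C57BL/6 on the intensities themselves. At any size, 27 of the 63 protein-coding members were called in at least 1 comparison (42.9%, beside 29.6% of the other protein-coding genes), as were 37 of the 70 lncRNAs (52.9%, beside 42.0%). Of the 12, 8 had a strain mean under 100, so the level minimum itself bears on this count. They were 4930523O13Rik, 4921534H16Rik, 4933401H06Rik, 4933433G15Rik, 4930417H01Rik, 4930573C08Rik, 4930515G01Rik and 4930483J18Rik. Only C57BL/6 reached 100 in 4930515G01Rik and 4930483J18Rik, and only AKR/N in 4930573C08Rik. Among members with all 3 strain means at 100 or more, 3 of 51 lncRNAs (5.88%) and 0 of 59 protein-coding members were called at 2-fold, beside 3.73% and 1.74% of the other genes so chosen. Differences between these shares were not tested.

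In MRL/MpJ+/+ against C57BL/6, 12 members were higher and 24 lower. The 8.28% that were higher stood close to the background, 5.07% of all tested probe sets and 8.79% of the tested genes with a mean of at least 100. The 16.6% that were lower stood above 4.95% and 8.67%. Of the 120 members with every strain mean at 100 or more, 10 were higher (8.33%, background 7.94%) and 15 lower (12.5%, background 8.21%). The median difference of the 145 was -0.070 (log2), beside 0.013 over all tested probe sets, and 91 members were lower in sign. Without MRL/MpJ+/+ replicate 1 the 36 calls became 18, and without MRL/MpJ+/+ replicate 2 they became 23, in both cases with more lower than higher. Without the trend of variance on level they were 12.

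AKR/N against C57BL/6 gave 12 higher and 18 lower. Higher members made up 8.28%, beside 5.09% of all tested probe sets and 9.14% of the genes of similar level, and lower ones 12.4%, beside 4.88% and 7.59%. Among the 120 the figures were 8 (6.67%, background 8.25%) and 12 (10%, background 7.07%). The median difference was 0.0028 (log2), beside -0.0027 over all tested probe sets, and 73 members were higher and 72 lower in sign. The 30 calls became 17 without AKR/N replicate 1, 18 without AKR/N replicate 2 and 14 without the variance trend, and they became 47 when the level minimum was set at 50.

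The largest imbalance was between MRL/MpJ+/+ and AKR/N, where 11 members were higher in MRL/MpJ+/+ and 35 lower. Higher members were 7.59%, beside 3.22% of all tested probe sets and 5.75% of the genes of similar level, and lower ones 24.1%, beside 3.69% and 8.04%. Of the 120, 7 were higher (5.83%, background 5.26%) and 28 lower (23.3%, background 7.91%). The median difference was -0.093 (log2), beside 0.015 over all tested probe sets. By class, 15 lncRNAs were lower (21.4%, beside 13% of the other lncRNAs of at least 100 units) and 8 higher (11.4%, beside 8.02%). Of the protein-coding members 18 were lower (28.6%, beside 7.5% of the other protein-coding genes) and 2 higher (3.17%, beside 5.68%). The 46 calls became 20, 16, 18 and 20 on leaving out AKR/N replicate 1, AKR/N replicate 2, MRL/MpJ+/+ replicate 1 and MRL/MpJ+/+ replicate 2, with 12, 10, 12 and 12 of them lower. They became 29 with no filter on dim probe sets and 11 without the variance trend, where 6 were lower and 5 higher. The comparisons share arrays, so their counts are not independent of each other.

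**Figure D2:**
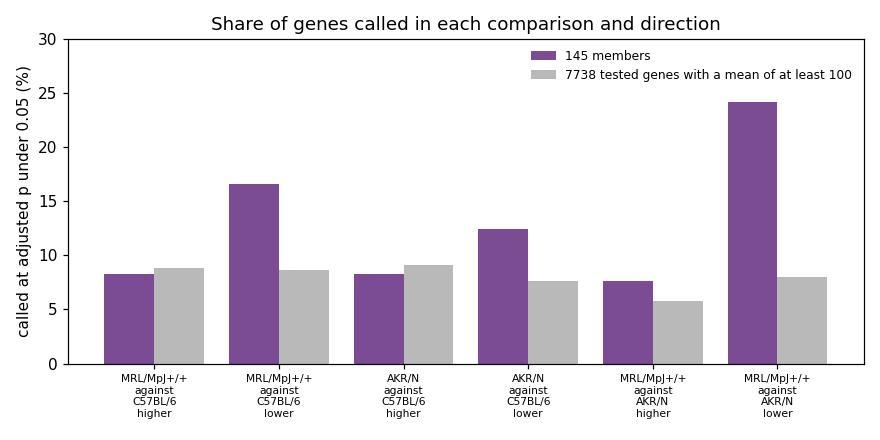
Percentage of members called higher or lower at an adjusted p under 0.05 in each comparison, beside the percentage of all tested genes with a mean of at least 100. The tallest bar is that of members lower in MRL/MpJ+/+ than in AKR/N, at 24.1% beside 8.04%.

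Single arrays were compared as well. Both AKR/N arrays lay above the 4 others for 43 members (29.7%, beside 16.2% of the tested genes with a mean of at least 100) and below them for 27 (18.6%, beside 16.4%). Both MRL/MpJ+/+ arrays lay below the 4 others for 46 (31.7%, beside 16.9%) and above them for 17 (11.7%, beside 18.1%). For C57BL/6, 29 members were above (20%, beside 15.4%) and 14 below (9.66%, beside 18.6%).

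**Figure D3:**
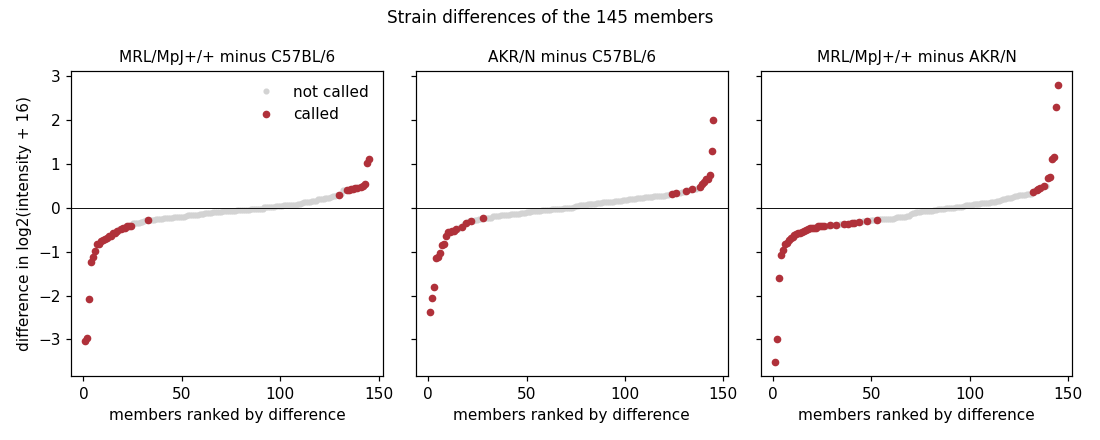
Difference of each member in log2(intensity + 16), ranked within each of the 3 comparisons, with called members in red and the others in grey. Most members lie near 0, and single members at the ends lie apart, from -3.52 (4930523O13Rik) to 2.81 (4933433G15Rik) in MRL/MpJ+/+ minus AKR/N.

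The largest difference of any member was in 4930523O13Rik, a lncRNA whose nearest tested genes in RefSeq order were 1700022A22Rik and 4930548G14Rik. Of these, 4930548G14Rik was also lower in MRL/MpJ+/+ than in AKR/N (-0.66, adjusted p = 0.0363 by limma), and 1700022A22Rik was not called in any comparison. Intensities of 4930523O13Rik were 291 and 297 in C57BL/6, 450.3 and 381 in AKR/N, and 25.1 and 18.4 in MRL/MpJ+/+. Both MRL/MpJ+/+ arrays were below the median probe set of the arrays, and the 4 other arrays were far above it. The level above which probe sets were tested, 17.8 to 20.8 over the arrays, is close to the MRL/MpJ+/+ values, so a signal above background was not shown there. MRL/MpJ+/+ differed from C57BL/6 by -3.04 on the log2(intensity + 16) scale (SE 0.129, adjusted p = 2.56e-07 by limma) and from AKR/N by -3.52 (adjusted p = 1.41e-07). These sizes are set in part by the pseudocount: the first was -3.71 with 1 and -2.06 with 64, and -2.16 over the mean of the gene's probe sets. Both other probe sets of the gene went the same way. The brighter of them had means of 91.3 ± 31.5 (SD, n = 2), 178 ± 25.4 and 3.50 ± 4.79 in C57BL/6, AKR/N and MRL/MpJ+/+ (difference of MRL/MpJ+/+ from C57BL/6 -2.45, adjusted p = 9.27e-05), and the dimmer had 26.7 ± 7.90, 55.6 ± 5.99 and 5.15 ± 0.842 (also called lower, adjusted p = 0.0226). The smaller excess of AKR/N over C57BL/6, 0.47 with an adjusted p of 0.0427 by limma, was lost on leaving out any array of these strains. The difference was then 0.36 to 0.59. Of the other probe sets, the brighter was also called higher in AKR/N than in C57BL/6 (0.88, adjusted p = 0.0404). The dimmer went the same way but did not pass (0.75, adjusted p = 0.0738).

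The lncRNA 4921534H16Rik was also lowest in MRL/MpJ+/+. It gave 274 and 208 units in C57BL/6, 251 and 235 in AKR/N, and 11.4 and 22.2 in MRL/MpJ+/+. The C57BL/6 and AKR/N arrays overlapped, and MRL/MpJ+/+ was below both, at about the level above which probe sets were tested, so a signal above background was not shown there. MRL/MpJ+/+ differed from C57BL/6 by -2.98 (SE 0.177, adjusted p = 3.29e-06 by limma) and from AKR/N by -3.00 (adjusted p = 4.64e-06). The first size was -3.82 with a pseudocount of 1 and -1.91 with 64. The gene overlaps Clstn2, a synaptic adhesion gene that was dim in every strain (means of 39.0, 39.6 and 35.9). Of the nearest tested genes on either side, Trim42 was not called in any comparison. The other, Nmnat3, which encodes an enzyme of NAD synthesis, went the other way in MRL/MpJ+/+. It went from 71.2 ± 3.21 in C57BL/6 to 591 ± 48.4 (difference 2.80, adjusted p = 7.91e-08 by limma), and stood at 371 ± 29.5 in AKR/N.

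A milder fall in MRL/MpJ+/+ was seen in the lncRNA 4930584F24Rik. Its arrays read 452 and 445 in C57BL/6, 382 and 341 in AKR/N, and 199 and 199 in MRL/MpJ+/+. No strain overlapped another. The difference was -1.11 from C57BL/6 (SE 0.0917, adjusted p = 3.17e-05 by limma) and -0.81 from AKR/N (adjusted p = 0.000461).

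In 4 of the lncRNAs called at 2-fold or more, AKR/N was below both other strains. The first, 4933401H06Rik, overlaps the zinc transporter gene Slc39a8 and carries a MYB core in the promoter window printed above. It had 502 and 468 units in C57BL/6, 58.2 and 108 in AKR/N, and 453 and 468 in MRL/MpJ+/+. AKR/N lay far below the 4 others, which were close together. The difference of AKR/N from C57BL/6 was -2.38 (SE 0.185, adjusted p = 2.07e-05 by limma) and that of MRL/MpJ+/+ from AKR/N 2.31 (adjusted p = 3.62e-05). Slc39a8 itself was not called in any comparison, with means of 367 ± 46.4, 382 ± 13.1 and 292 ± 19.3 in C57BL/6, AKR/N and MRL/MpJ+/+.

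Signal of 4933433G15Rik differed between all 3 strains. It was 151 on both C57BL/6 arrays, 32.2 and 31.7 in AKR/N, and 357 and 289 in MRL/MpJ+/+. The strains stood in the order MRL/MpJ+/+, C57BL/6, AKR/N with no overlap. AKR/N was lower than C57BL/6 by 1.80 (log2, SE 0.13, adjusted p = 1.23e-05 by limma), MRL/MpJ+/+ was higher than C57BL/6 by 1.02 (adjusted p = 0.000695) and higher than AKR/N by 2.81 (adjusted p = 6.89e-07). Among its nearest tested genes, Mapk6, a MAP kinase gene, was also lower in AKR/N than in C57BL/6, by 0.43 (adjusted p = 0.0106 by limma). The fall in MRL/MpJ+/+ of Mapk6, -0.20, did not pass (adjusted p = 0.19).

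In 4930452G13Rik the arrays gave 674 and 751 units in C57BL/6, 339 and 348 in AKR/N, and 773 and 811 in MRL/MpJ+/+. AKR/N was lower than C57BL/6 by 1.02 (log2, SE 0.0822, adjusted p = 2.67e-05 by limma) and MRL/MpJ+/+ was higher than AKR/N by 1.17 (adjusted p = 1.44e-05). The AKR/N arrays were the lowest, and the excess of MRL/MpJ+/+ over C57BL/6 did not pass (0.15, adjusted p = 0.297). Cnmd, among its nearest tested genes, went the opposite way. It was higher in AKR/N than in C57BL/6 by 0.64 (adjusted p = 0.049 by limma), and lower in MRL/MpJ+/+ than in AKR/N by 0.72 (adjusted p = 0.0391). In 4930417H01Rik the values were 212 and 175 in C57BL/6, 74.7 and 83.2 in AKR/N, and 204 and 177 in MRL/MpJ+/+. Only AKR/N stood apart, with differences of -1.14 from C57BL/6 (adjusted p = 0.000332) and of 1.12 for MRL/MpJ+/+ against it (adjusted p = 0.000563). This gene overlaps Slc30a4, another zinc transporter gene, which was not called (0.36 in AKR/N against C57BL/6, adjusted p = 0.0619).

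Among the 12, AKR/N was the highest strain by 2-fold in 4930573C08Rik and 4933438K21Rik. The first, classed as other RNA, gave 70.7 and 63.6 units in C57BL/6, 286 and 348 in AKR/N, and 93.1 and 94.1 in MRL/MpJ+/+. AKR/N was higher than C57BL/6 by 2.00 (log2, SE 0.129, adjusted p = 5.16e-06 by limma), and MRL/MpJ+/+ was lower than AKR/N by 1.60 (adjusted p = 3.78e-05). Its only other probe set was dim (17.5 ± 0.351, 27.0 ± 1.34 and 12.6 ± 1.86) and was not called, and the mean of both gave 1.18 in place of 2.00. Fam135b, among its nearest tested genes in RefSeq order, was also higher in AKR/N than in C57BL/6, by 0.42 (adjusted p = 0.0172 by limma).

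The lncRNA 4933438K21Rik read 438 and 386 in C57BL/6, 1028 and 1057 in AKR/N, and 518 and 455 in MRL/MpJ+/+. AKR/N was above the 4 others, by 1.31 against C57BL/6 (SE 0.0917, adjusted p = 9.54e-06 by limma), and MRL/MpJ+/+ was below it by 1.08 (adjusted p = 5.88e-05). The nearest tested gene on each side was lower in AKR/N and MRL/MpJ+/+ than in C57BL/6. The zinc finger gene Zfp991 had means of 1164 ± 42.8 (SD, n = 2), 385 ± 2.58 and 205 ± 3.46 in C57BL/6, AKR/N and MRL/MpJ+/+, and 1700095A21Rik had 144 ± 20.2, 13.6 ± 0.454 and 6.69 ± 4.10.

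C57BL/6 was the high strain by 2-fold for 4930515G01Rik and 4930483J18Rik. Both passed the level minimum, each with a mean of 108 over the 6 arrays, only through C57BL/6, so this pattern is in part a product of the minimum. The lncRNA 4930515G01Rik, whose window above is the richest in G and C of the 5, gave 220.0 and 252 units in C57BL/6, 38.6 and 50.9 in AKR/N, and 50.1 and 38.1 in MRL/MpJ+/+. AKR/N and MRL/MpJ+/+ overlapped, and C57BL/6 was above both. Differences were -2.06 for AKR/N (SE 0.164, adjusted p = 2.52e-05 by limma) and -2.07 for MRL/MpJ+/+ (adjusted p = 2.36e-05). It overlaps Git2 and Ankrd13a, and neither was called in any comparison. The lncRNA 4930483J18Rik read 179 and 183 in C57BL/6, 73.5 and 74.5 in AKR/N, and 66.7 and 70.1 in MRL/MpJ+/+. It was lower than C57BL/6 by 1.13 in AKR/N (adjusted p = 0.000226) and by 1.22 in MRL/MpJ+/+ (adjusted p = 0.000129), while the difference of MRL/MpJ+/+ from AKR/N, -0.09, did not pass.

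The pseudogene 4933400A11Rik was the only other member higher by 2-fold in MRL/MpJ+/+ than in C57BL/6. Its arrays gave 338 and 254 units in C57BL/6, 453 and 338 in AKR/N, and 683 and 625 in MRL/MpJ+/+. MRL/MpJ+/+ was above all others, by 1.12 against C57BL/6 (SE 0.149, adjusted p = 0.000906 by limma). Its excess of 0.72 over AKR/N (adjusted p = 0.0166) was lost without AKR/N replicate 2 or either MRL/MpJ+/+ array, with an adjusted p of up to 0.148. The gene overlaps Mid1, which was dim, and probes for a pseudogene may also bind transcripts of its parent gene.

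**Figure D4:**
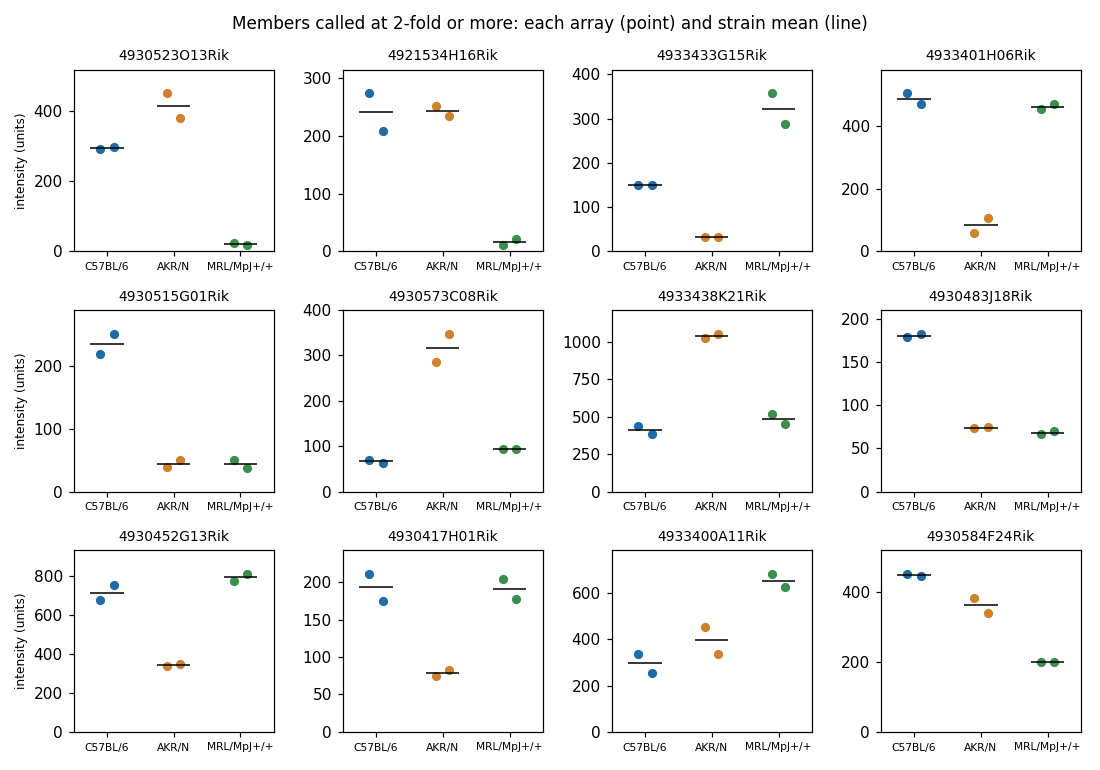
Intensity on each array (units, linear axes from 0) of the 12 members called at 2-fold or more, 1 panel per gene, with 1 point per mouse and a line at each strain mean. MRL/MpJ+/+ is lowest in 4930523O13Rik and 4921534H16Rik, AKR/N is lowest in 4933401H06Rik and 4933433G15Rik, and C57BL/6 is highest in 4930515G01Rik.

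The 23 calls at 2-fold or more of these 12 members kept their direction and passed under each alternative run, with a highest adjusted p of 0.0451. Sizes of members with a dim strain depended on the pseudocount. With 64 in place of 16, MRL/MpJ+/+ differed from AKR/N by -2.48 in 4930523O13Rik, by -1.93 in 4921534H16Rik and by 2.01 in 4933433G15Rik. AKR/N then differed from C57BL/6 by -1.16 in 4933433G15Rik and by -1.46 in 4930515G01Rik, where MRL/MpJ+/+ differed from C57BL/6 by -1.47. With 64, several calls fell under 2-fold. Against C57BL/6, MRL/MpJ+/+ then differed by -0.89 in 4930483J18Rik, -0.96 in 4930584F24Rik and 0.84 in 4933433G15Rik. AKR/N differed from C57BL/6 by -0.83 in 4930483J18Rik, -0.84 in 4930417H01Rik and -0.93 in 4930452G13Rik. In 4930417H01Rik, MRL/MpJ+/+ differed from AKR/N by 0.83.

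Protein-coding members changed by less on the log2 scale. The most altered was 4933424G06Rik, with 524 and 543 units in C57BL/6, 353 and 375 in AKR/N, and 263 and 259 in MRL/MpJ+/+. Each strain stood apart from the next. The fall from C57BL/6 was 0.99 in MRL/MpJ+/+ (log2, difference -0.99, SE 0.0845, adjusted p = 4.08e-05 by limma) and 0.53 in AKR/N (difference -0.53, adjusted p = 0.00272). In 4930415O20Rik, MRL/MpJ+/+ alone was low. Its arrays read 758 and 728 in C57BL/6, 859.5 and 791 in AKR/N, and 415 and 411 in MRL/MpJ+/+, a difference of -0.82 from C57BL/6 (SE 0.0774, adjusted p = 8.22e-05) and of -0.97 from AKR/N (adjusted p = 3.59e-05).

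Another protein-coding member, 4930579F01Rik, gave 929 and 772 units in C57BL/6, 718 and 724 in AKR/N, and 449.7 and 490.1 in MRL/MpJ+/+, which was the lowest (difference from C57BL/6 -0.83, adjusted p = 0.000318 by limma). In 4932414N04Rik the low strain was AKR/N, with 639 and 557 units, beside 1021 and 1141 in C57BL/6 and 857 and 755 in MRL/MpJ+/+. AKR/N differed from C57BL/6 by -0.84 (SE 0.0957, adjusted p = 0.000321). Calls of MRL/MpJ+/+ for 4932414N04Rik, -0.42 against C57BL/6 and 0.42 against AKR/N, were lost without C57BL/6 replicate 2 or MRL/MpJ+/+ replicate 2 (adjusted p up to 0.144) and without AKR/N replicate 2 or MRL/MpJ+/+ replicate 1 (up to 0.211).

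Among lncRNAs with smaller differences, 4921525O09Rik had a second probe set to set beside the first. It gave 597 and 623 units in C57BL/6, 403 and 417 in AKR/N, and 658 and 681 in MRL/MpJ+/+, and AKR/N was lower than C57BL/6 by 0.55 (log2, SE 0.0767, adjusted p = 0.00118 by limma). MRL/MpJ+/+ was higher than AKR/N by 0.69 (adjusted p = 0.000415). The second probe set differed by -0.53 (adjusted p = 0.0174) and 0.61 (adjusted p = 0.0119) in the same comparisons. The lncRNA 4930474N09Rik was lower in MRL/MpJ+/+ (159 and 178) than in C57BL/6 (303 and 255) and AKR/N (289 and 330.2), by 0.68 and 0.82 (adjusted p = 0.00443 and 0.00216). For 4921531C22Rik the fall in MRL/MpJ+/+ from C57BL/6, from 169.9 ± 13.3 to 93.3 ± 3.6, was 0.76 (adjusted p = 0.00207).

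Some lncRNAs had their lowest signal in C57BL/6. The lncRNA 4933404O12Rik had 268 and 316 units in C57BL/6, 445 and 417 in AKR/N, and 433 and 434 in MRL/MpJ+/+. C57BL/6 was below the 4 others, by 0.55 against MRL/MpJ+/+ (SE 0.097, adjusted p = 0.00499 by limma) and by 0.54 against AKR/N, where the call was lost without AKR/N replicate 1 (adjusted p = 0.0574). In 4930442J19Rik, AKR/N at 317 and 292 was above C57BL/6 at 189 and 203, by 0.59 (adjusted p = 0.00328). The lncRNA 4930520O04Rik went the other way, with its highest signal in C57BL/6. It was lower in AKR/N (82.8 and 83.2) than in C57BL/6 (147 and 174), by 0.83 (adjusted p = 0.00243).

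Of the 145 genes, 34 had more than 1 probe set, which gave 64 further probe sets, 49 of them tested. For members called in MRL/MpJ+/+ against C57BL/6, 14 further probe sets of 10 genes were tested, of which 12 had the same sign and 4 were called the same way. In AKR/N against C57BL/6 these numbers were 11 probe sets of 8 genes, 10 and 4, and in MRL/MpJ+/+ against AKR/N 14 of 9 genes, 13 and 8. Among these, no further probe set was called in the opposite direction. Where the member was not called, some further probe sets were. That of 4930444F02Rik was higher in MRL/MpJ+/+ than in C57BL/6 by 0.53 (adjusted p = 0.00439 by limma), beside -0.16 for the member. Those of 4933406F09Rik were higher in MRL/MpJ+/+ than in AKR/N by 0.51 and 0.45, beside 0.02. In 4930513N10Rik, 1 differed by -0.73 in AKR/N against C57BL/6, beside -0.04. Of the 2-fold members, 4930523O13Rik and 4930573C08Rik had such probe sets, and the other 10 were measured by a single probe set, so that a base difference between strains under its probes was not tested for them.

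Tested genes that overlap the 2-fold members, or are nearest to them on each side in RefSeq order, were set beside them. Genes without a tested probe set were passed over, and distances were not measured. Of 18 tested neighbours of the members called at 2-fold in MRL/MpJ+/+ against C57BL/6, 1 was called, Nmnat3, and it went the opposite way. In AKR/N against C57BL/6, 6 of 20 were called, 3 in the member's direction, and in MRL/MpJ+/+ against AKR/N, 5 of 19, again 3 in the member's direction. Over all tested probe sets, 5.07% were higher and 4.95% lower in the first comparison. The shares were 5.09% and 4.88% in the second, and 3.22% and 3.69% in the third. Among tested genes with a mean of at least 100 they were 8.79% and 8.67%, 9.14% and 7.59%, and 5.75% and 8.04%. The shares of neighbours called were not tested.

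Germ cell markers also differed between strains, though the cell types that make the members were not measured here. Of 9 tested spermatogonia markers, 1 was higher in MRL/MpJ+/+ and 1 in AKR/N than in C57BL/6, and 0 were lower. Of 11 tested round spermatid markers, 0 were higher and 6 lower in MRL/MpJ+/+ than in C57BL/6 (median difference -0.25), and 0 and 7 were higher and lower than in AKR/N (median -0.26). Their summed signal was 14753 to 15141 units in MRL/MpJ+/+, beside 17039 to 18606 in C57BL/6 and 18107 to 18635 in AKR/N, and the dimmest of them averaged 648 units. Of 12 elongating spermatid markers, 3 were lower in MRL/MpJ+/+ than in C57BL/6 and 2 lower than in AKR/N, with sums of 63294 to 69664 in MRL/MpJ+/+, 72555 to 77873 in C57BL/6 and 67701 to 71743 in AKR/N. The 12 spermatocyte markers summed to 10224 to 11169 in AKR/N, beside 12671 to 12995 in C57BL/6 and 12201 to 12545 in MRL/MpJ+/+. In AKR/N 5 of them were lower than in C57BL/6, in MRL/MpJ+/+ 4 were lower and 1 higher than in C57BL/6, and 7 were higher and 1 lower in MRL/MpJ+/+ than in AKR/N. Over all tested probe sets, 5.07% were higher and 4.95% lower in MRL/MpJ+/+ than in C57BL/6. The shares were 5.09% and 4.88% in AKR/N against C57BL/6, and 3.22% and 3.69% in MRL/MpJ+/+ against AKR/N. Among tested genes with a mean of at least 100 they were 8.79% and 8.67%, 9.14% and 7.59%, and 5.75% and 8.04%. The part of the marker differences in the members' counts was not tested.

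Among somatic markers, those of Leydig cells, blood and adipose tissue moved mainly between C57BL/6 and the other strains. Peritubular muscle and endothelium markers gave 0 calls, and 1 of 8 macrophage markers was lower in MRL/MpJ+/+ than in C57BL/6. Of 11 tested Sertoli cell markers, 3 were higher and 1 lower in AKR/N than in C57BL/6. In MRL/MpJ+/+ 1 was higher than in C57BL/6, and 1 was higher and 2 lower than in AKR/N. Of 6 tested Leydig cell markers, 4 were higher in AKR/N and 4 in MRL/MpJ+/+ than in C57BL/6, with sums of 3422 to 3553 in C57BL/6, 5591 to 6092 in AKR/N and 5663 to 5839 in MRL/MpJ+/+. Sums of 3 tested blood markers were 126 to 137 in C57BL/6, 283 to 289.8 in AKR/N and 276 to 288 in MRL/MpJ+/+, and those of 4 adipose tissue markers 227 to 255, 453 to 744 and 415 to 439. Of 3 tested epididymis markers, 1 was lower in MRL/MpJ+/+ and 1 in AKR/N than in C57BL/6. Their sums were 116 to 142 units in C57BL/6, 77.1 to 121 in AKR/N and 62.8 to 66.0 in MRL/MpJ+/+. The background shares are those given with the germ cell markers. The part of the somatic markers in the members' differences from C57BL/6 was not tested.

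For comparison, the 126 genes with a clone name beginning 1700 and the same minimum, another series of testis clones, gave 6 higher and 33 lower in MRL/MpJ+/+ than in C57BL/6 and 5 higher and 38 lower than in AKR/N. Their median differences were -0.13 and -0.16 (log2), and in AKR/N against C57BL/6 18 were higher and 10 lower with a median of 0.033. Of all tested genes with a mean of at least 100, 8.79% were higher and 8.67% lower in MRL/MpJ+/+ than in C57BL/6. The shares were 5.75% and 8.04% in MRL/MpJ+/+ against AKR/N, and 9.14% and 7.59% in AKR/N against C57BL/6. No difference between the 1700 genes and the members was tested.

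Promoter windows were searched on both strands for motifs of factors known from male germ cells. The MYB core GGCAGTT was found in 12 of 111 members (10.8%), beside 4.14% of all 27025 windows of that length. Of the 54 members with a window that were called in any comparison, 7 held it, as did 5 of the 57 that were not. The other members described above that hold it, besides 4933401H06Rik, are shown with 10 bases on each side and the core in capitals, on the gene's strand of GRCm38.p6. They are at chr11:34299725-34299751 (plus strand), chr15:98570943-98570969 (plus), chr2:151301898-151301924 (plus) and chr9:114368151-114368177 (plus), in the order of printing.
4930403D09Rik: gaggtgggagGGCAGTTagcattttac
4930415O20Rik: tggacaaaggAACTGCCagttacggta
4930442J19Rik: ttctgggtgaGGCAGTTggtgtgcatt
4930520O04Rik: ctccaactgcGGCAGTTcctttgaatt
The core began 7 bases before the start in the first, 51 in the second, 131 in the third and 163 in the last. AKR/N was the high strain in the first, MRL/MpJ+/+ the low one in the second, C57BL/6 the low one in the third, and AKR/N the low one in the last.

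The full CRE TGACGTCA stood in 4 members (3.60%), beside 1.88% of all windows, and none of the 4 was called in any comparison. They are printed with the CRE in capitals, from chr8:123235048-123235075 (plus strand), chr2:9881185-9881212 (plus), chr8:12672400-12672427 (plus) and chr2:35367716-35367743 (minus), because each begins within 51 bases before its gene's start.
4933417D19Rik: acgtgcattcTGACGTCAttgccttccc
4930412O13Rik: acactgggttTGACGTCAcgggccggcc
4931415C17Rik: ctctgcccctTGACGTCAccaggaggta
4930568D16Rik: aagaattcagTGACGTCAccatgagaga
The shorter TGACGT, which is contained in the full CRE, stood in 11 members (9.91%), beside 7.65% of all windows. The RFX motif GTTGCC was found in 17 (15.3%), beside 12.7%, and the TATA box TATAAA in 6 (5.41%), beside 14.2%. These shares are descriptions of the windows, and a match of letters is not a binding site.

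**Figure D5:**
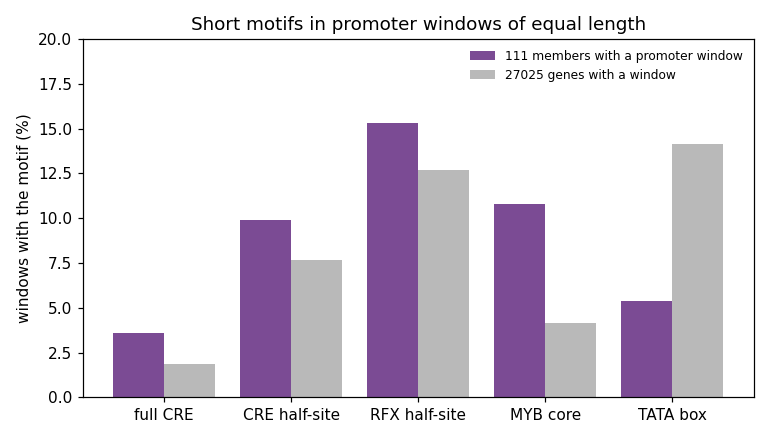
Percentage of promoter windows that hold each motif on either strand, for the 111 members with a window and for all 27025 genes with one. The MYB core is in 10.8% of the members' windows beside 4.14%, and the TATA box in 5.41% beside 14.2%.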

How the data were processed

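Whole testis RNA of 6 mice was hybridised to 6 mouse GeneChip arrays, 1 per mouse. The authors deposited linear intensity values per probe set, already scaled, and the values themselves give a mean of 125.001 on each array after trimming 2% at each end. The software that summarised the probes is not given in the sources used here. RNA was extracted with Trizol and labelled with biotin, per the labels' protocols.

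Of 45101 probe sets, 64 controls were left out, and 29692 with at least 2 of 6 arrays above their array's 40th percentile were fitted in R 4.3.3 as log2(intensity + 16), using limma 3.58.1 (lmFit and contrasts.fit, then eBayes with a trend; 3 residual and 7.58 prior degrees of freedom). All 145 members were tested. P-values were adjusted by Benjamini-Hochberg over all tested probe sets. Symbols came from the platform annotation (34945 probe sets with 1 symbol, 932 with several, 9160 with none), and classes, gene order and promoters from RefSeq tables of GRCm38.p6, matched by Entrez identifier for 140 members.

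Named members are the 10 largest called rises and falls per comparison without overlap between strains, of which those with a bearing on the text are described, the 8 of highest mean and the 3 on each side of the minimum. The members and all gene lists were chosen with earlier results of these data known. Alternatives were quantile normalization, median centring, other filters, no variance trend, pseudocounts of 1 and 64, only the arrays compared, a replicate block, the mean of a gene's probe sets, minimums of 50 and 200, and leaving out each array.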

Additional observations from a re-analysis of the deposited data

How the results depend on the processing

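Of the 77 calls of named members, 40 kept their side of the threshold with each array left out in turn, and none changed direction under any alternative. Without the variance trend 41 of the 77 were lost, and that fit called 12 members in MRL/MpJ+/+ against C57BL/6, 14 in AKR/N against C57BL/6 and 11 in MRL/MpJ+/+ against AKR/N, in place of 36, 30 and 46. With no filter on dim probe sets MRL/MpJ+/+ against AKR/N gave 29, and a minimum of 50 gave 47 in AKR/N against C57BL/6. The cause was not tested. Leaving out 1 array gave 18 to 32, 17 to 32 and 16 to 52 calls in these comparisons. The labels do not say whether the replicate numbers pair the mice. Deviations of arrays correlated at 0.043, 0.049 and 0.047 by replicate number, which cannot settle it. With the replicate numbers as a block the counts were 41, 37 and 54 and no named call was lost. The smallest called difference of any member was 0.24 (log2), and with 2 arrays per strain smaller ones may be missed.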
